A study of Mus musculus with 8 samples.

Results

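Suprabasal keratinocytes (KCs) are the cells of the epidermis that have left the basal layer and have begun to differentiate. Here they were chosen by measured values, as the cells whose UMIs (unique molecular identifiers, 1 per captured mRNA molecule) came to at least 2% from the keratin genes Krt1 and Krt10 together. A member also had at least 2 of the 6 genes Krtdap, Mt4, Calm4, Krt77, Acer1 and Elovl4 detected, fewer than 3 of the 5 infundibulum genes Krt79, Defb6, Cst6, Klk7 and Sprr1a, and no UMI of the leukocyte gene Ptprc. Cells with fewer than 500 or more than 4000 genes, over 20000 UMIs or over 10% mitochondrial UMIs were left out. This gave 199 members among 11118 cells that passed the limits and 26231 deposited barcodes. The rule rests on the measured values of the same cells, so the levels of its genes, and every difference from other cells, are descriptions and not tests.

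The cells came from dorsal skin of female BALB/c mice aged 14 to 16 weeks, in 4 libraries labelled PBMCsec and 4 labelled vehicle. PBMCsec is the medium conditioned by irradiated human blood mononuclear cells, and the design text gives subcutaneous injection for both groups. The study's methods describe scars that formed after full-thickness wounding, sampled at more than 1 time, and sorting of viable cells, but the labels give neither the time point nor the control solution of a library. The comparison asks whether the injected secretome changed the number or the expression of these cells.

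Members were unevenly spread over the libraries. The PBMCsec libraries numbered 1 to 4 held 6, 3, 53 and 21 of them, and the vehicle libraries held 5, 1, 61 and 49. The libraries numbered 1 and 2 stood apart in other ways as well. The RNA-noise genes Gm42418, Gm17056 and Gm26917, which the study removed, took 2.21% to 12.3% of the UMIs of their members and 0.201% to 0.752% in the libraries numbered 3 and 4. Expression was therefore compared in the 4 libraries with at least 10 members, numbered 3 and 4 in each group. Whether the numbers 1 and 2 mark another time point or batch than 3 and 4 is not given in the labels, so that the test may cover 1 time or batch and the 8 libraries together may mix them. A further 121 barcodes met the gene criteria but lay above the limits on genes or UMIs. Without these upper limits there were 320 cells, 14 to 71 in each of the 8 libraries, and that larger set is given beside the treatment results as an alternative chosen after seeing the data.

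The median member held 13114 UMIs and 3207 genes, against 10248 UMIs in basal KCs, 9524 in infundibulum-type KCs and 3911 in leukocytes. At the threshold, 33 members had 2.0% to 2.2% of their UMIs from Krt1 and Krt10, and 22 further cells met all other criteria at 1.8% to 2.0%. Of the 219 filtered cells at or above 2%, 4 had Ptprc and 17 had infundibulum genes, with 1 cell in both counts, and were left out. Of the 199 members, 121 had all 6 of the detected markers and 2 had exactly 2. Across all libraries 78 barcode sequences occurred in more than 1 library, and none of these was a member.

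In the epidermis, KCs divide on the basement membrane while making keratins 5 and 14, and switch to keratins 1 and 10 when they detach and form the spinous layer. Spinous cells strengthen their desmosomes, start to make the lipids and proteins of the permeability barrier, and pass into the granular layer, where loricrin, filaggrin and involucrin are made before the cells cornify. Notch signalling between neighbouring cells and transcription factors such as ZNF750 and the Grainyhead-like family are known drivers of this programme.

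Sbsn (suprabasin), Dmkn (dermokine) and Krtdap (keratinocyte differentiation-associated protein) form 1 cluster of secreted epidermal proteins on chromosome 7. The 150 bases before the RefSeq start (GRCm38.p6) are shown for these 3 genes and for Krt10, Krt77 and Mt4 of the rule, because all 6 were abundant in the cells. Capitals mark the TATA box TATAAA and the AP-1 motif TGANTCA, searched on both strands, and no 2 matches overlapped.
Krt10, chr11:99389365-99389514, minus strand: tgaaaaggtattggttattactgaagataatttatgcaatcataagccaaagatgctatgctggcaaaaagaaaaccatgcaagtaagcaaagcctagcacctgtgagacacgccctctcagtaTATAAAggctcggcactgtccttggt
Krt77, chr15:101869706-101869855, minus strand: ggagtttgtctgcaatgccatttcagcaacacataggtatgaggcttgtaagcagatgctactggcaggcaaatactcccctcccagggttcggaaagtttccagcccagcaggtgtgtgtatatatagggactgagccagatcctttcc
Krtdap, chr7:30787755-30787904, plus strand: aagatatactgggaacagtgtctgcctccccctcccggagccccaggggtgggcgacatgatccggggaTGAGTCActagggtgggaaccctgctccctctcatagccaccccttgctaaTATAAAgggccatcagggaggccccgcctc
Sbsn, chr7:30751321-30751470, plus strand: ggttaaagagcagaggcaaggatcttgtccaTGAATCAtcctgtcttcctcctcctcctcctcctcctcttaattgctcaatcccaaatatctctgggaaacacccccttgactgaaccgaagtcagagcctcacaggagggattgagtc
Dmkn, chr7:30763606-30763755, plus strand, the first of 3 listed starts: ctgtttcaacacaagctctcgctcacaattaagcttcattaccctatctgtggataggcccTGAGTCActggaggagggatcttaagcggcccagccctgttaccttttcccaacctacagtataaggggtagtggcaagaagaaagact
Mt4, chr8:94137054-94137203, plus strand: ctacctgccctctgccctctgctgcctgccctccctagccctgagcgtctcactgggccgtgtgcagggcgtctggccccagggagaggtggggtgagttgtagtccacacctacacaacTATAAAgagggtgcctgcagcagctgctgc

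The TATA box began 26 bases before the start in Krt10 and 30 bases before it in Krtdap and Mt4. The AP-1 motif began 81 bases before the start in Krtdap, 119 in Sbsn and 89 in Dmkn. The window of Krt77 held neither set of letters. Among the 119 genes with a promoter entry that belonged to the rule or were at least 2-fold higher than in basal KCs in every library, 14.3% held TATAAA and 10.1% held TGANTCA in this window. The share over all 27025 genes with an entry was 8.89% and 4.96%, and over the 7434 entries of genes at 5 CPM or more it was 4.13% and 3.44%. These matches are of letters only.

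Levels are given as CPM, counts of a gene per 1000000 UMIs, summed over the cells of a class in a library. As each UMI counts 1 molecule from its 3′ end, gene length does not enter. Krt10 (ENSMUSG00000019761, chromosome 11, 99385254 to 99389364), the type I keratin of the spinous layer, stood at 18778 and 24529 CPM in the PBMCsec libraries numbered 3 and 4 and at 17854 and 16702 in the vehicle libraries of these numbers. Its type II partner Krt1 (ENSMUSG00000046834, chromosome 15, 101845426 to 101850794) had 13060.2 and 18030.4 CPM after PBMCsec and 13882 and 11585 after vehicle. PBMCsec library 4 was the highest of these 4 for both, and over all 8 libraries, where Krt10 ran from 18354 to 27636 CPM after PBMCsec and from 16702 to 23889 after vehicle, the groups overlapped for both. Genes of the rule were not tested between the groups. In basal KCs the means were 571 ± 299 CPM for Krt10 and 612 ± 246 for Krt1 (SD, n = 4 libraries).

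Krtdap had a mean of 8459 ± 1374 CPM in the members, Calm4, a calmodulin-like calcium-binding protein of the epidermis, 4764 ± 598, and Krt77, a type II keratin coded beside Krt1, 2412 ± 191 (SD, n = 4). The corresponding means in basal KCs were 195, 348 and 50.8 CPM. The 4 libraries were closest for Acer1, an alkaline ceramidase, with 233, 234, 227 and 237 CPM, and for Elovl4, which elongates the very long fatty acids of barrier ceramides, with 318, 359, 306 and 332. The basal means of these 2 enzymes were 10.3 and 10.04 CPM.

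Mt4, the metallothionein of stratified epithelia, was higher in the members than in each of the other 3 classes compared. It had 1554, 1779, 1749.9 and 1896 CPM in the 4 libraries, against a mean of 72.1 ± 13.3 in basal KCs, 26.4 in infundibulum-type KCs and 52.7 in leukocytes. Mt4 lies on chromosome 8 at 94137197 to 94139031. Its neighbours Mt2, at 94172664 to 94173568, and Mt1, at 94179082 to 94180327, were lower in the members than in basal KCs. The level of Mt2 was 337 ± 96.4 CPM in the members and 951 ± 189 in basal KCs, and that of Mt1 was 1052 ± 191 and 1813 ± 546 (SD, n = 4). Like Mt4, both were higher in the members than in infundibulum-type KCs (122 for Mt2 and 313 for Mt1) and leukocytes (46.9 and 203). Mt1 and Mt2 are the broadly expressed, metal-inducible members of the family.

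The basal keratins were low but not absent. Krt14 had 1748, 669.6, 1595 and 521 CPM in the members and a mean of 23728 in basal KCs, and Krt5 had 573, 645, 1007 and 443 against 10124. The number of members without a single Krt5 or Krt14 UMI was 70, while 17 had at least 0.5% and 8 at least 2% of their UMIs from these 2 genes. The top 10 cells held 74.9% of all Krt14 UMIs of the members. Leukocytes, which should not make Krt14, held a UMI of it in 29.0% of cells, against 49.7% of the members. After thinning every cell to 3000 UMIs, which 181 members and 1452 leukocytes reached, the share was 24.3% of members and 19.97% of leukocytes, with 95% exact binomial intervals of 18.3% to 31.2% and 17.9% to 22.1%. The intervals, which cover counting error only, overlapped. For Krt5 the thinned shares were 28.7% of members (22.3% to 35.9%) and 12.6% of leukocytes (10.9% to 14.4%), and these intervals did not overlap.

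**Figure D1:**
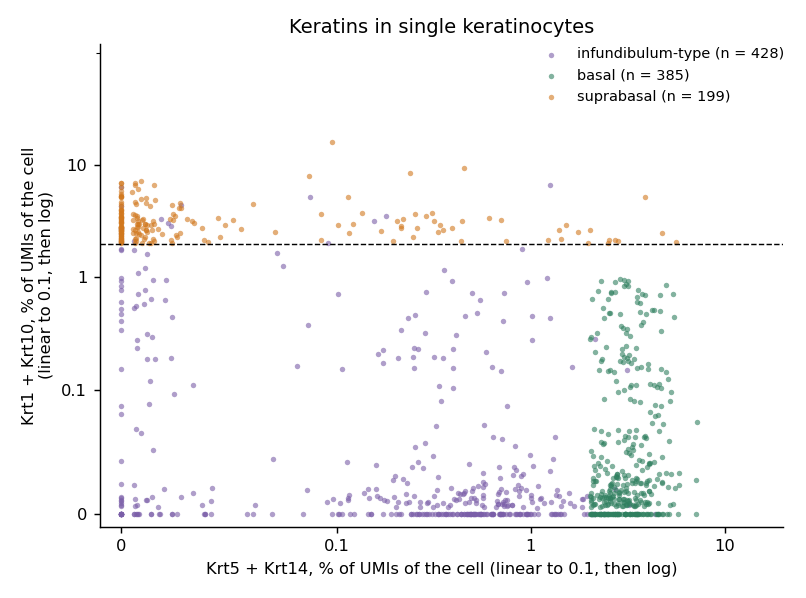
Each point is 1 keratinocyte, with the percent of its UMIs from Krt5 and Krt14 on the x axis and from Krt1 and Krt10 on the y axis; both axes are linear up to 0.1% and logarithmic above. The 199 suprabasal cells lie above the dashed line at 2%, most of them toward the left edge, and 8 of them reach 2% of basal keratins as well.

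Among genes outside the rule, 164 were at least 2-fold higher in the members than in basal KCs in each of the 4 libraries and 215 at least 2-fold lower, on the log2(CPM + 10) scale. Of the 9411 genes at 5 CPM or more in either class these are 1.74% and 2.28%. The counts depend on the 10 CPM added, with 316 and 578 at 1 CPM and 54 and 70 at 50 CPM. Ly6g6c, a GPI-anchored LY6 protein, led with a median log2 difference of 6.06, from 893, 1081, 765 and 1293 CPM in the members against 2.28 to 8.63 in basal KCs. It was however as high in infundibulum-type KCs, at 1235 CPM. Krt78, a type II keratin of the same chromosome 15 cluster as Krt1 and Krt77, had 97.0, 194, 129.7 and 168 CPM in the members, 0.245 in basal KCs and 5.66 in infundibulum-type KCs, so that it was low in both other KC classes. It was detected in 48.2% of members, 0.260% of basal KCs and 1.87% of infundibulum-type KCs.

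Of the spinous differentiation list, 18 of 20 genes reached 5 CPM outside the rule, and 11 of these were at least 2-fold higher than in basal KCs in every library and none lower, with a median log2 difference of 1.802 beside -0.029 for all genes at that level. Sbsn stood at 2639 ± 209 CPM against 214 ± 46.8, and Fabp5, which carries fatty acids in the cytoplasm, at 1246 ± 393 against 162 ± 111. The acyl-CoA thioesterase gene Them5 had 182 ± 20.7 CPM against 4.28 ± 7.62. Other genes of the list were abundant in both classes. Lgals7 (galectin-7) had 14888 ± 3195 against 8121 ± 1600.3, and Sfn (stratifin, 14-3-3 sigma) 4248 ± 1061 against 4366 ± 683 (SD, n = 4).

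**Figure D2:**
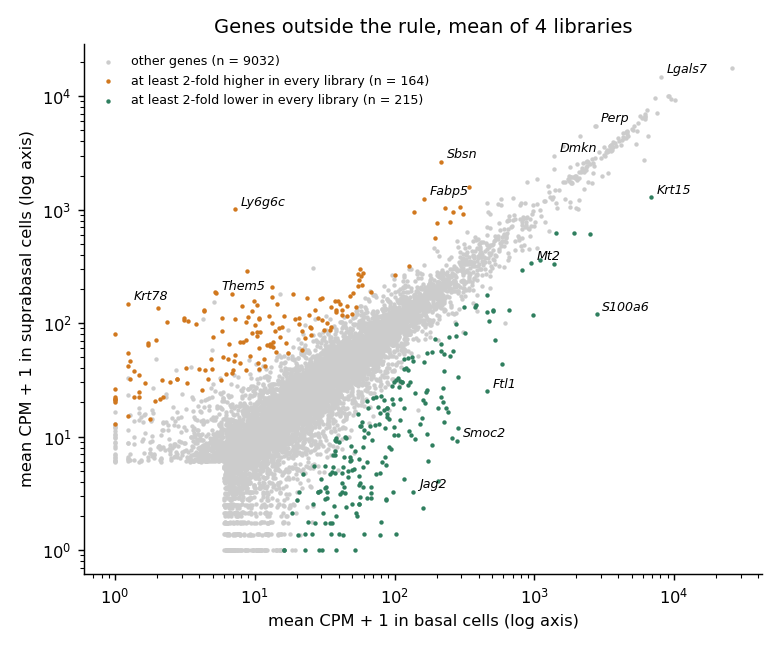
Mean CPM + 1 in suprabasal cells (y, log axis) against basal cells (x, log axis), 1 point for each gene at 5 CPM or more outside the rule, mean of 4 libraries. The 164 orange genes, with Ly6g6c and Sbsn farthest from the diagonal at high levels, and the 215 green genes, with Krt15 and S100a6, differed at least 2-fold in every library.

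Genes of the granular layer and cornified envelope outside the rule were sparse. The most abundant gene of that list, Cst6, is a gene of the rule, with 272 CPM and a UMI in 75.9% of members. Of the 32 genes in the list, 15 outside the rule reached 5 CPM in either class. Of these, 4 were at least 2-fold higher than in basal KCs in every library. These were Asprv1, the protease that processes filaggrin, the epidermal caspase Casp14, the protease Klk5 and its inhibitor Spink5. Casp14 was found in 51.8% of members and 0.501% of leukocytes, with 81.6 ± 14.4 CPM in the members. The terminal genes were rare: Lor (loricrin) was detected in 12.6% of members, Ivl (involucrin) in 9.55% and Flg (filaggrin) in 2.51%. The shares in leukocytes, at their lower depth, were 1.003%, 0.365% and 0.593%. After thinning to 3000 UMIs the shares of members were 14.9% for Casp14, 3.87% for Lor and for Ivl and 0.552% for Flg. The means of Lor, Ivl and Flg were 21.1 ± 20.1, 39.7 ± 29.7 and 4.38 ± 2.13 CPM. In infundibulum-type KCs, which the rule leaves out, they were 511 ± 684, 122 ± 37.0 and 868 ± 1170 CPM. How far this choice set the levels in the members was not tested. A single cell of vehicle library 3 held 27 of the 53 Lor UMIs of all members. No UMI was found of 12 of the 32 genes, among them 11 late cornified envelope genes of the Lce1 family and Rptn. With 199 cells, a count of 0 allows a share of cells with a UMI of up to 1.51%, taking 3 counts as the limit.

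In the list for barrier lipid synthesis, 6 of 22 genes at 5 CPM or more were at least 2-fold higher in every library and none lower. They were Abca12, which loads lamellar bodies with lipid, the fatty acid elongase Elovl6, the triglyceride synthase Dgat2, the lipoxygenase Alox12e, the lipase Lipm and the desaturase Scd1. Lipm had 159, 113, 147 and 139 CPM against a basal mean of 7.05. Alox12e had 99.9, 117, 49.4 and 177 CPM against 2.13, and reached 891 in infundibulum-type KCs.

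Of 17 desmosome and adherens junction genes at 5 CPM or more, 2 were at least 2-fold higher in every library and 2 lower, and of 13 tight and gap junction genes 3 were higher and none lower. Perp, a membrane protein of desmosomes, was the most abundant gene of its list at 5515 ± 426 CPM against 2728 ± 94.0. Of the desmogleins, Dsg1a and Dsg1b were at least 2-fold higher in every library, and Dsg2 and Dsg3 at least 2-fold lower. Dsg1a had 1087, 1093, 1146 and 823 CPM against a basal mean of 229.8. Among gap junction genes Gjb5 (connexin 31.1) had 127, 173, 133 and 131 CPM in the members and a basal mean of 44.4 ± 11.1, and was at least 2-fold higher in every library. Gja1 (connexin 43) was at 202 ± 51.5 CPM in the members and 479.7 ± 84.6 in basal KCs, and was not 2-fold lower in every library.

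Of 24 differentiation transcription factors at 5 CPM or more, Grhl1, Grhl3, Cebpa and Zfp750 (the mouse gene of ZNF750) were at least 2-fold higher in every library and Ets1 at least 2-fold lower. Zfp750 had 213, 165, 171 and 168 CPM against a basal mean of 17.8, and Cebpa 243, 339, 250.2 and 376 against 56.0. The most abundant factor of the list, Klf4, had 804 ± 179 CPM against 645 ± 127, and Gata3 526 ± 102 against 365 ± 67.0, so both were present in each class at similar levels. In the Notch pathway the receptor gene Notch3 was at 61.8 ± 14.1 CPM against 11.9 ± 5.15, and the ligand gene Jag2 at 2.25 ± 1.503 against 135 ± 19.6. The ligand Dll1 was also at least 2-fold lower in every library. Hes1, a transcriptional target of Notch, had 444, 101, 264 and 332 CPM in the members, and a basal mean of 143.

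The basal layer list went the opposite way as a block. Of 18 genes at 5 CPM or more outside the rule, 16 were at least 2-fold lower in every library, with a median log2 difference of -2.19. The exceptions were Dst and Trp63, and 6 of the 18 genes (Col17a1, Itga6, Itgb4, Cdh3, Krt15 and Dst) had also served to choose the basal cells. The 16 included the hemidesmosome genes Itga6, Itgb4 and Col17a1 and the laminin genes Lama3 and Lamb3. Lamb3 had 5.04 ± 2.53 CPM against 172 ± 10.4. Outside the list, the matricellular gene Smoc2 had 8.19 ± 5.65 CPM against 280.3 ± 16.5, and the calcium-binding protein gene S100a6 119 ± 48.0 against 2791 ± 1252. Of 24 cell cycle genes at 5 CPM or more, Cenpf, Cenpa and Mki67 were at least 2-fold lower in every library and none higher. The proliferation marker Mki67 was found in 4.52% of members and 16.6% of basal KCs, and in 0.552% and 11.4% after thinning to 3000 UMIs (95% exact binomial intervals 0.014% to 3.04% and 8.37% to 15.2%).

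In the marker lists, genes of cells outside the epithelium were low apart from Trbc2, whereas markers of other epithelial parts of the skin were present. Outside the lists, the haemoglobin genes Hbb-bs and Hba-a1 reached 1153 and 586 CPM in vehicle library 4, nearly all from 1 cell. The infundibulum list summed to 677, 1101, 639 and 1585 CPM in the 4 libraries, with all 8 genes detected and Cst6 highest at 272 CPM. In vehicle library 4 Sprr1a alone had 834 CPM. In basal KCs this list summed to 628, 657, 1119 and 1368 CPM. Cells with 3 or more of the 5 infundibulum genes of the rule had been left out of both classes. The hair follicle list summed to 255, 229.9, 242 and 184 CPM, with 14 of 16 genes detected, Sostdc1 highest at 85.4 CPM and Grem1 and Shh at 0. Its basal sums were higher, at 272, 300, 861 and 321 CPM. The sebaceous list summed to 172, 206, 196 and 128 CPM, and to 75.1, 79.8, 105 and 83.4 in basal KCs. In the members most of it came from Scd1 at 139, with 5 of 10 genes detected and Awat1 and Awat2 among those at 0. Of 8 endothelial genes only Pecam1 had a UMI, of 6 melanocyte genes 3 had one, with Tyrp1, Tyr and Dct at 0, and of 10 macrophage and dendritic genes 8 had one, with C1qb and Csf1r at 0. The summed level of the macrophage and dendritic list was 27.5, 24.2, 20.1 and 15.1 CPM in the 4 libraries and its most abundant gene was Cd74 at 5.59 CPM. The fibroblast list summed to 88.3, 105, 75.7 and 42.3 CPM, with Col3a1 highest at 22.3 CPM and Pdgfra at 0.

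Trbc2 is the constant region of the T cell receptor beta chain (chromosome 6, 41546730 to 41548352). It had 126, 133, 88.0 and 101 CPM in the members against a basal mean of 7.98 ± 4.80, and was detected in 48.7% of members, 5.71% of basal KCs and 23.1% of infundibulum-type KCs. After thinning, the shares of members and basal KCs were 20.99% (95% exact binomial interval 15.3% to 27.7%) and 0.545% (0.066% to 1.95%). The UMIs were spread over 97 cells, and the top cell held 9 of 252. The T cell genes Cd3d, Cd3e, Trac, Cd28, Icos, Ctla4 and Il7r had no UMI in any member, which by the same limit allows up to 1.51% of cells with a UMI for each, while Trac was detected in 30.9% and Cd3d in 40.5% of leukocytes. Cd3g and Trbc1 had 0.362 and 8.82 CPM. Ephb6, which lies within 100 kb on chromosome 6, was also at least 2-fold higher than in basal KCs in every library.

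**Figure D3:**
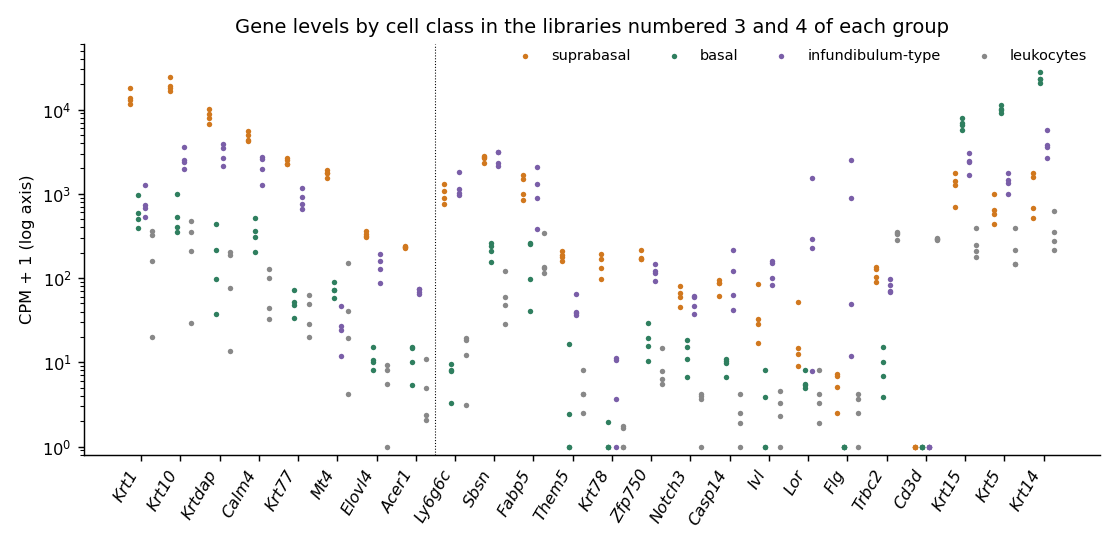
CPM + 1 on a log axis for 24 genes, with 1 point per library for each of 4 cell classes in the libraries numbered 3 and 4 of both groups. Genes left of the dotted line belong to the rule; Mt4, Them5 and Krt78 were highest in suprabasal cells, Ly6g6c and Sbsn were as high in infundibulum-type cells, and Trbc2 lay between leukocytes and basal cells while Cd3d was at 0 in suprabasal cells.

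Members also differed among themselves. In the 3 libraries with at least 30 members, cells were divided into tertiles by the share of Krt5 and Krt14 among the UMIs of the 4 keratins, which was 0 at the median of the lowest tertile and 4.19%, 6.41% and 2.48% at the median of the highest. Depth was similar, with medians of 14105, 10782 and 13831 UMIs in the lowest and 13970, 11528 and 14017 in the highest. Genes higher in the cells with least basal keratin included Ivl, Hal (histidine ammonia-lyase, which makes the epidermal filter urocanic acid), Calml3 and Sdr16c6, with median log2 differences of 3.26, 3.01, 2.30 and 2.58, each positive in all 3 libraries. Ivl was found in only 19 members, and 1 cell of vehicle library 4 held 46 of its 99 UMIs. Its difference in PBMCsec library 3 was 0.54. S100a6, Tspo and Noc2l were higher in the cells with most basal keratin in all 3 libraries, with differences of -3.06, -1.93 and -1.62. The wound-associated genes Krt6a and Stfa3 had median differences of -3.56 and -2.06, but in vehicle library 4 the sign was opposite.

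The level of Krt1 and Krt10 together had a median of 2.86% of UMIs and ran from 2.003% to 16.2%. Across the cells of a library, its Spearman correlation with the level of Krtdap was 0.49, 0.51, 0.34 and 0.41, and with Calm4 0.35, 0.61, 0.45 and 0.44. For Krt77 it was 0.19, 0.27, -0.020 and 0.13. Outside the rule it was 0.46, 0.59, 0.31 and 0.17 for Sbsn and 0.38, 0.75, 0.43 and 0.47 for Lgals7. For Serpinb2 it was -0.005, 0.17, -0.14 and -0.35. These are descriptions over 53, 21, 61 and 49 cells that share a library. The rule that chose them used Krtdap, Calm4 and Krt77 as well as Krt1 and Krt10.

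Most UMIs of the stress-associated keratins Krt16 and Krt6b came from few cells. Krt16 was found in 21.6% of members, and the 10 cells with most of it held 78.1% of its UMIs. Krt6b had 190 UMIs in 7 members, and 163 of them came from 1 cell of PBMCsec library 4. Serpinb2, a serpin inhibitor made by KCs, was the most abundant gene of the wound and stress list. It was detected in 72.4% of members, at 537, 726, 1064 and 1748 CPM in the members and a mean of 2063 ± 738 in basal KCs.

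The share of suprabasal KCs among filtered cells did not separate the groups. It was 0.556%, 0.567%, 2.09% and 1.31% in the PBMCsec libraries numbered 1 to 4 and 1.57%, 0.244%, 2.10% and 2.81% in the vehicle libraries. The means were 1.13% ± 0.731 and 1.68% ± 1.08 (SD, n = 4), a difference of -0.550 percentage points (exact two-sided permutation p = 0.486, smallest possible p = 0.0286). Both groups spread more between libraries than they differed. Within the libraries numbered 1 and 2 the difference was -0.347 points and within those numbered 3 and 4 it was -0.753. Of suprabasal and basal KCs together, the members made up 27.6% ± 11.5 after PBMCsec and 30.5% ± 16.4 after vehicle (exact permutation p = 0.771), and this difference changed its sign under several other settings of the rule.

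**Figure D4:**
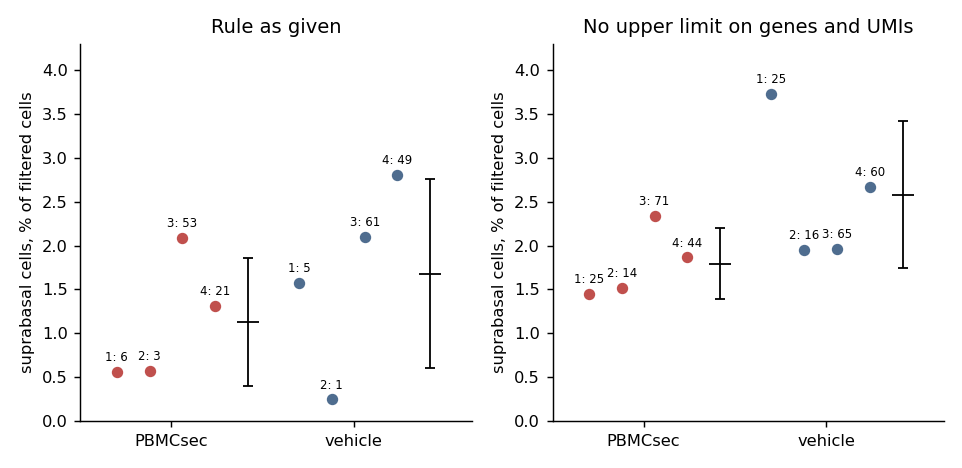
Suprabasal cells as a percent of filtered cells, 1 point per library, labelled with the library number and the count of suprabasal cells; the bar is the mean and the error bar 1 SD over 4 libraries. The groups overlap with the rule as given (left) and without upper limits on genes and UMIs (right), where the means were 1.79% and 2.58%.

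For gene expression, 6323 genes outside the rule were tested between 2 PBMCsec and 2 vehicle libraries with 241333 to 671350 UMIs each. The labels do not say that the libraries come from separate mice, and p-values measure the spread between these libraries. After Benjamini-Hochberg adjustment, edgeR's quasi-likelihood test called 0 genes (0.0% in either direction) at the 0.05 level. Before adjustment 70 genes were higher (1.11%) and 86 lower (1.36%) at that level, limma-voom also called none, and DESeq2 called 1, BC100530, higher. Leaving out 1 library called 0 to 5 genes higher and 2 to 19 lower, the most lower ones without PBMCsec library 3. The following values are of genes that did not pass.

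On the higher side, the stefin-like gene BC100530 had the lowest p. It stood at 589 and 493 CPM after PBMCsec and 211 and 107 after vehicle, a log2 difference of 1.77 ± 0.32 (SE, edgeR adjusted p = 0.296). These CPM are scaled by TMM, as are the single-gene treatment values up to the comparison with basal KCs. The related cysteine protease inhibitor Stfa3 had 216 and 121 against 45.8 and 82.9 CPM, a difference of 1.45 ± 0.37 (edgeR adjusted p = 0.9999). The libraries did not overlap for either gene, which held for 14.2% of all genes tested in this direction. However, 1 cell of PBMCsec library 3 held 359 of the 400 BC100530 UMIs of that library and, the same cell, 106 of its 147 Stfa3 UMIs. Of the other genes of lowest p, Dkkl1 had 39.7 and 62.6 against 19.8 and 9.75 CPM and Defb1 48.6 and 16.7 against 9.16 and 11.4, with log2 differences of 1.649 and 1.87. Single cells held all 15 Dkkl1 UMIs and all 4 Defb1 UMIs of PBMCsec library 4 and all 13 Dkkl1 UMIs of vehicle library 3.

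On the lower side, Plet1, a surface protein of hair follicle and other epithelial progenitors, had 29.4 and 12.5 CPM after PBMCsec and 116 and 133 after vehicle, a difference of -2.35 ± 0.37 (edgeR adjusted p = 0.226). The interferon-inducible gene Ifi202b had 25.0 and 4.18 against 101 and 91.0 CPM. The tight junction gene Cldn4 had 13.2 and 0 against 61.0 and 166, and Tnfaip3, an inhibitor of NF-kB signalling, 26.5 and 33.4 against 79.3 and 151. AA986860 had 10.3 and 8.35 against 35.1 and 39.0 CPM. Plet1, Ifi202b and Cldn4 were found in 18, 30 and 22 of all 199 members. In vehicle library 3, 1 cell held 55 of 76 Plet1 UMIs, 1 cell 47 of 66 Ifi202b UMIs and 1 cell 24 of 40 Cldn4 UMIs, and in vehicle library 4 the top cells held 37 of 82, 29 of 56 and 45 of 102. Tnfaip3 was spread more widely, in 13 of 53 and 4 of 21 members after PBMCsec and 23 of 61 and 24 of 49 after vehicle.

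**Figure D5:**
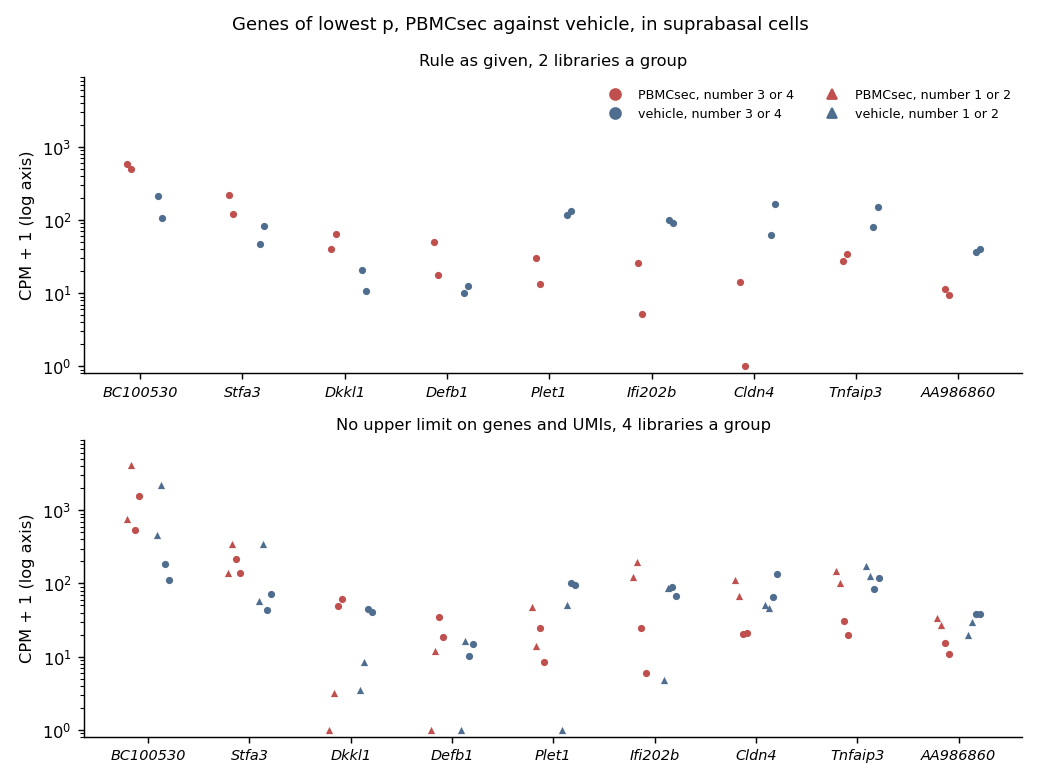
CPM + 1 (log axis, TMM-scaled) of 9 genes among those of lowest p in either direction, 1 point per library; circles are libraries numbered 3 and 4, triangles those numbered 1 and 2. The upper panel shows the 2 libraries a group of the test, which do not overlap for these genes, and the lower panel all 8 libraries without upper limits on genes and UMIs. There the groups overlap for all 9, while within all 4 same-numbered pairs BC100530 and Stfa3 were higher and Tnfaip3 lower after PBMCsec.

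edgeR called no member of any list. The 1 gene that DESeq2 called, BC100530, belongs to the wound and stress list, and with a mitochondrial limit of 5% edgeR called Asprv1 of the granular list lower. Of the spinous list 17 genes were tested, with a median log2 difference of 0.012 beside 0.0053 for all genes, and Lypd3 was among the genes lower at an unadjusted p under 0.05. Of 28 immediate early and heat shock genes 21 had a negative value, with a median of -0.25 and 1 higher and 3 lower at that level. PBMCsec library 4 stood apart here, as the list summed to 25992 and 13618 CPM after PBMCsec and 20248 and 24619 after vehicle in the members, and to 31737 and 15133 against 23158 and 27044 in basal KCs. Of 11 glucocorticoid-responsive genes, 10 had a negative value, with a median of -0.28, where 3114 of all 6323 genes were negative. PBMCsec library 4 was lowest for this list too, with sums of 1894 and 1311 CPM against 2196 and 2757 in the members and 3008 and 2524 against 2737 and 3215 in basal KCs. Medians were 0.066 for 15 desmosome and adherens junction genes, -0.17 for 10 granular genes, -0.13 for 18 lipid genes, -0.14 for 10 tight and gap junction genes, -0.039 for 15 basal layer genes, 0.069 for 11 Notch genes, -0.11 for 22 transcription factors and 0.37 for 11 wound and stress genes. They were -0.11 for 14 metallothionein and redox genes, 0.11 for 6 cell cycle genes and -0.12 for 4 interferon-stimulated genes. The lists of infundibulum, sebaceous and hair follicle markers had 3, 3 and 4 genes tested with medians of 0.37, 0.16 and 0.19. The 3 fibroblast genes tested had a median of 0.52 and Trbc2, the 1 T cell gene tested, had 0.43, while no macrophage, endothelial or melanocyte marker was abundant enough. The part of these other cells in the treatment values was not tested. Over the 8 libraries without upper limits, the set of the following paragraph, 21 of 27 immediate early and heat shock genes were negative and 6 positive. Their median was -0.35, with 7 lower and 0 higher at an unadjusted edgeR p under 0.05. Of all 6466 genes tested there, 3113 were negative, with 121 lower and 126 higher at that level. The glucocorticoid-responsive list again had 10 of 11 genes negative, with a median of -0.33.

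Without the upper limits, 6466 genes were tested over 4 libraries a group. Markers of other cells entered this set. Vehicle library 4 had 152 CPM of Col1a2, 132 of Col3a1 and 115 of Col1a1, against at most 14.5, 29.9 and 16.3 in the other libraries. Vehicle library 2 had 37.7 CPM of Cd3g. The part of these cells in the values below was not tested. Neither edgeR nor DESeq2 called a gene, and before adjustment edgeR gave 126 higher (1.95%) and 121 lower (1.87%). Same-numbered libraries deviated together in this set, with r of 0.154 to 0.293, although 1 differently numbered pair reached 0.157. The pairing was thus taken from the same expression values and not from the labels. With the number as a block the counts before adjustment were 215 and 200, still with none past adjustment (smallest edgeR adjusted p = 0.0793). Krt16 had 899, 1905, 336 and 964 CPM after PBMCsec and 484, 485, 309 and 406 after vehicle. Krt6a had 79.9, 582, 186 and 199 against 17.6, 128, 93.7 and 8.05, and Lor 6.53, 8.65, 9.97 and 17.4 against 16.3, 15.1, 43.6 and 137. The groups overlapped for all 3 genes, while within each of the 4 pairs of same-numbered libraries Krt16 and Krt6a had the larger value after PBMCsec and Lor the smaller. Of all 6466 genes, 7.81% were higher and 7.36% lower in all 4 pairs. Aqp3, which codes a water and glycerol channel of the epidermis, was also higher in each pair, with 320, 772, 208 and 481 CPM against 121, 260, 127 and 244. None of the 4 genes, which were chosen after their values were seen, passed with the block, where edgeR gave a log2 difference of 1.17 for Aqp3 (adjusted p = 0.0793). It gave 1.07 for Krt16 (adjusted p = 0.400), 2.19 for Krt6a (adjusted p = 0.192) and -2.26 for Lor (adjusted p = 0.0793). Ifi202b, whose value was negative in the 4-library test, was at 121, 197, 23.6 and 4.98 CPM against 3.77, 84.9, 87.1 and 65.6 and had a log2 difference of 0.43. Of the genes printed for that test, BC100530 and Stfa3 were higher after PBMCsec in each of the 4 pairs and Tnfaip3 lower. Stfa3 was nearly equal in the pair numbered 2, at 341.6 and 341.4 CPM. Plet1, Ifi202b, Cldn4, AA986860, Dkkl1 and Defb1 went both ways. With the block, edgeR adjusted p was 0.451 for BC100530, 0.510 for Stfa3 and 0.610 for Tnfaip3. The libraries numbered 3 and 4 had served to choose these genes.

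Last, the treatment difference in suprabasal KCs was tested against that in basal KCs of the same 4 libraries, with the library as a block. Of 7292 genes, edgeR called 2 higher (0.0274%) and 5 lower (0.0686%), and before adjustment 2.03% were higher and 2.7% lower. The CPM of this comparison are not scaled by TMM. Fabp5 had 981, 1662, 846 and 1493 CPM in suprabasal KCs, where the groups overlapped. In basal KCs it had 39.8 and 96.3 CPM after PBMCsec and 257 and 253 after vehicle, and the log2 difference of the effects was 2.196 ± 0.25 (edgeR adjusted p = 1.88e-06). Over all 8 libraries without the upper limits the value of Fabp5 was -0.70. Krt17, a keratin of follicle and wounded epidermis, had 79.6, 153, 54.1 and 112 CPM in suprabasal KCs and 397 and 193 against 828 and 1038 in basal KCs, a difference of 1.91 ± 0.37 (edgeR adjusted p = 0.0118). With a mitochondrial limit of 5% the value of Krt17 was -0.31.

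On the lower side were Plet1, Ifi202b, Nfkbia, Hbb-bs and Hba-a1. Plet1 was at 226 and 117 CPM against 227 and 242 in basal KCs, and the difference of the effects was -2.09 ± 0.34 (edgeR adjusted p = 0.00159). Nfkbia, which codes the NF-kB inhibitor IkB alpha, had 639.6 and 250.1 against 749 and 1262 CPM in suprabasal KCs and a difference of -1.07 ± 0.20 (edgeR adjusted p = 0.0102). The haemoglobin genes Hbb-bs and Hba-a1 rested on a single cell of vehicle library 4, which held 759 of 763 Hbb-bs and 381 of 388 Hba-a1 UMIs of that library. Without vehicle replicate 4 the value of Hbb-bs was -0.97 (edgeR adjusted p = 1). Without upper limits, over 8 libraries, edgeR called 0 higher and 1 lower, Hbb-bs. Sox9, Nrarp and Ostc, the next genes on the higher side, had edgeR adjusted p of 0.0740, 0.0764 and 0.104.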

How the data were processed

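Dorsal skin in 8 libraries (4 PBMCsec, 4 vehicle) was measured by 10x Genomics 3′ single-cell RNA sequencing. What the authors deposited is a table of UMI counts for each library, over 31053 genes and the barcodes called as cells, with no normalization. The submitters' processing notes name Cell Ranger 3.0.2 and mm10, whereas the study's methods give another Cell Ranger version. Strand handling is not given in the sources used here. Libraries held 14753926 to 37880651 UMIs in 1457 to 5621 barcodes. The members, gene lists and tests were chosen with earlier results of these data known.

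The rule was applied to each barcode, and Gm42418, Gm17056 and Gm26917 were then removed. Basal KCs (385) had at least 2% Krt5 and Krt14 UMIs, under 1% Krt1 and Krt10, at least 2 of 6 basal genes and fewer than 2 of 9 follicle genes; infundibulum-type KCs (428) had at least 3 of the 5 genes, and leukocytes (2194) a Ptprc UMI. No doublet caller was run; removing the 5% of members with the most UMIs was an alternative. The study tested single cells with a Wilcoxon test; here counts were summed per library, because cells are not replicates, and tested with edgeR 4.0.16 (R 4.3.3; TMM, filterByExpr, quasi-likelihood, Benjamini-Hochberg over all genes tested). DESeq2 1.42.0 and limma 3.58.1 were alternatives. Genes of the rule stayed in library sizes (the sum over genes kept by the filter) and out of tests. Shares were compared by exact permutation of libraries. The code was tested on simulated data. Genes are named by rule: those of the rule, the 5 of lowest p in each direction where fewer passed, the 20 highest and 10 lowest against basal KCs (mean of at least 50 CPM), up to 4 most abundant of each list, and 10 at each end of the tertiles; those printed are a part of these, with Aqp3, Krt16, Krt6a, Krt6b, Lor, Ivl, Flg, Mt2 and Ephb6 added after their values were seen. Some genes that these rules name are not reported here. Positions are from GENCODE M21 (GRCm38).

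Same-numbered libraries correlated in their deviations from the group means in the 8-library sums (r = 0.154, 0.216, 0.255 and 0.293 over 6554 genes; differently numbered pairs ran from -0.249 to 0.157, the highest for PBMCsec 3 with vehicle 1), so by a rule of r over 0.1 in every pair the numbers were taken to pair them from the data, as the labels give no shared mouse or day. In the 4-library fit r was 0.116 with 2 pairs.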

Additional observations from a re-analysis of the deposited data

Results flagged for a closer look

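In tests of 52 groups of 4 libraries, 5 values lay far from the other 3 of their group. The cut flags about 1 in 20 groups of normally distributed values. Most groups were CPM of genes that the tests above had named, partly from the same libraries. That rate therefore does not carry over, and 5 of 52 cannot be set against it. Genes of the rule were not tested. Without upper limits on genes and UMIs, vehicle library 2 had 2224 CPM of BC100530 against at most 463 in the other vehicle libraries, and 341.4 CPM of Stfa3 against 42.2 to 71.3. In the same set vehicle library 4 was highest for Nfkbia at 1147 CPM (692 to 733 in the others), for Hba-a1 at 449.7 CPM and for Hbb-bs at 877.5 CPM (1.26 to 6.60 in the others).

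For 7 genes the effect of PBMCsec differed between suprabasal and basal KCs in edgeR's interaction test. The log2 difference was 2.196 for Fabp5 and 1.913 for Krt17. It was -6.461 for Hba-a1, -5.975 for Hbb-bs, -2.552 for Ifi202b, -2.094 for Plet1 and -1.070 for Nfkbia. These calls are of the 4 libraries with the limits. Over 8 libraries without upper limits edgeR called 0 genes higher and 1 lower, Hbb-bs. There Fabp5 turned negative, as Krt17 did with a mitochondrial limit of 5%. For Hbb-bs and Hba-a1 1 cell held nearly all UMIs. In vehicle library 3, 1 cell held 55 of 76 Plet1 UMIs and 1 cell 47 of 66 Ifi202b UMIs. Nfkbia was found in 165 of the 199 members. Its log2 difference between PBMCsec and vehicle in suprabasal KCs was 0.013 over 8 libraries without upper limits. Why the effects differ was not tested.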

How the results depend on the processing

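The share among filtered cells stayed lower after PBMCsec, without passing the test, except that with Krt1 plus Krt10 at 4% the difference was 0.134 points; leaving out 1 library gave -1.03 to -0.174. The share among suprabasal and basal KCs turned to 4.80 points with a mitochondrial limit of 5%, 0.104 with a keratin limit of 1% and 5.31 with 4%, and leaving out 1 library gave -10.8 to 2.16. With the replicate block the share p-values were 0.375 and 0.750, and no other call changed under it.

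For the treatment test over 4 libraries, DESeq2 called 1 gene higher, no filter on low counts 5 higher and 17 lower, and the 5% mitochondrial limit 2 lower (Ifi202b and Asprv1). Leaving out 1 library called 0 to 5 higher and 2 to 19 lower; the lone library of a group is then assumed to vary like the others. Without upper limits on genes and UMIs, Ifi202b turned to 0.43, and to 0.11 with the replicate block. For the difference between suprabasal and basal KCs, 13 higher and 14 lower were called without a filter, 7 and 8 without TMM scaling, 1 and 4 with the 5% limit, and 0 and 1 without upper limits; leaving out 1 library gave 1 to 9 higher and 0 to 15 lower. Fabp5 turned to -0.70 without upper limits and Krt17 to -0.31 with the 5% limit. Genes at least 2-fold apart from basal KCs numbered 316 higher and 578 lower with a prior of 1 CPM and 54 and 70 with 50 CPM, and 184 to 196 and 243 to 275 without 1 library. The cause of these changes was not tested. With the rule as given, a keratin limit of 4% left too few cells for a fit, as did the libraries numbered 1 and 2 alone; without upper limits these 4 libraries gave 0 calls among 5870 genes, with 189 higher and 235 lower before adjustment; those numbered 3 and 4 are the libraries of the test itself. The libraries of the 4-library test hold 241333 to 671350 UMIs, and the part of depth in its number of calls was not tested.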

Other observations

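Among the deposited barcodes, 181 met the gene criteria of suprabasal KCs but were over the mitochondrial limit of 10%, and 72 of the 199 members had 5% to 10%. Genes at least 2-fold higher in the members, together with the rule's genes, numbered 172 with a known position, and 20 of them lay within 100 kb of another one. Besides the keratin and Sbsn clusters these included Calml3 with Calm4 on chromosome 13, Ly6g6c with Ly6g6e and Notch3 with Ephx3 on chromosome 17, Selenop with Ghr on chromosome 15, Trbc2 with Ephb6 on chromosome 6, and Dsg1a with Dsg1b. Whether 20 of 172 is many beside the 30931 genes with a position was not tested.

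Hpgds, the haematopoietic prostaglandin D synthase, had 95.5, 194, 202 and 189 CPM in the members against a mean of 12.2 in basal KCs and 16.3 in infundibulum-type KCs, and 176 in leukocytes. It was detected in 54.8% of members. Ptgs1 (cyclooxygenase 1), which makes the substrate of that enzyme, had 174, 355, 224 and 212 CPM against a basal mean of 54.7.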
